A study of Mus musculus with 167 samples.

Results

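Integrins and laminins were followed through mesothelial tumours that asbestos had induced in mice of many genetic backgrounds. The genes were every gene of the deposited count table whose mouse symbol is Itga or Itgb followed by a digit or letter, or Lama, Lamb or Lamc followed by digits, which gave 42 of the 36118 genes in the table. The symbols were found for 35825 of the Ensembl IDs. The 42 genes comprised 27 integrin chains (18 alpha and 9 beta), 11 laminin chains and 4 genes that match by symbol only (Itgbl1, Itgb1bp1, Itgb1bp2 and Itgb3bp). The members were sorted into leukocyte integrins (9 genes), platelet integrins (2), the common beta1 chain (1), laminin receptors (4), collagen receptors (4), receptors of RGD ligands and tenascin (7), laminin alpha (5), beta (3) and gamma (3) chains, and the 4 genes that are not chains.

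Integrins are cell-surface receptors made of 1 alpha and 1 beta chain, and they tie the matrix or another cell to the actin skeleton. Leukocytes carry chains of their own, among them the beta2 chain (Itgb2) with the alpha chains of LFA-1 (Itgal), Mac-1 (Itgam) and CD11c (Itgax), which leukocytes use to hold on to vessel walls and to other cells. Laminins are cross-shaped trimers of an alpha, a beta and a gamma chain that build the basement membrane, the sheet under epithelia and mesothelia and around vessels, muscle and nerve. Lamb3 is a beta chain of epithelial anchoring, and laminins with the Lama4 chain are known from vessel walls and connective tissue.

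Promoters of 4 members are shown because these genes had opposite signs of correlation with leukocyte markers in the comparison of leukocyte with tumour integrins. Itgam and Itgax are leukocyte chains that lie beside each other on chromosome 7, and Itga5 and Itgb5 are matrix receptors that ran against the leukocyte markers. Each line is the 250 bases before the gene's start, 5′ to 3′ in the gene's own direction, from the RefSeq promoter table on GRCm38.p6. Itgam is chr7:128062390-128062639 on the plus strand, Itgax is chr7:128129300-128129549 on the plus strand, Itga5 is chr15:103366792-103367041 on the minus strand and Itgb5 is chr16:33829415-33829664 on the plus strand. Capitals mark the core letters read by PU.1, a transcription factor of myeloid and B cells (GAGGAA or TTCCTC), the AP-1 site (TGAGTCA or TGACTCA) and the GC box (GGGCGG or CCGCCC), each searched on both strands.
Itgam: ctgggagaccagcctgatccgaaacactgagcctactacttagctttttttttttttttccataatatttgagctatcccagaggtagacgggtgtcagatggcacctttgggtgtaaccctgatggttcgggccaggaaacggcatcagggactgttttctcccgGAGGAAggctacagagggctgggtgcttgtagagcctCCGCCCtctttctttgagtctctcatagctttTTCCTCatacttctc
Itgax: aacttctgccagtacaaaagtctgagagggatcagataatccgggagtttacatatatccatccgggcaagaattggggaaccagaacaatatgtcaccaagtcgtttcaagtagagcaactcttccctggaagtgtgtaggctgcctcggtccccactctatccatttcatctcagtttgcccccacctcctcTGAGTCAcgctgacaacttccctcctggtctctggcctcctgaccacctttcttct
Itga5: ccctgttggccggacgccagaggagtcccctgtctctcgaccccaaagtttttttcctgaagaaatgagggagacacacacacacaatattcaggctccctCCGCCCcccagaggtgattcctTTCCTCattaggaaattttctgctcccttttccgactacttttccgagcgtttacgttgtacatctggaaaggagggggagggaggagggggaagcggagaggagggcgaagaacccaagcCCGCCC
Itgb5: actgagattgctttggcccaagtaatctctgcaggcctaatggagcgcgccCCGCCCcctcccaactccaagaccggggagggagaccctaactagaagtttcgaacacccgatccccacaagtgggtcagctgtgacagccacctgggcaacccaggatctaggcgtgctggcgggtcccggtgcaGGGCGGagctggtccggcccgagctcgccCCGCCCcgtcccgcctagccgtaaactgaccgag
The Itgam window held 2 PU.1 cores and 1 GC box, and the Itgax window held 1 AP-1 site. The Itga5 window held 1 PU.1 core and 2 GC boxes, and the Itgb5 window held 3 GC boxes. The PU.1 core thus stood in a leukocyte and in a matrix receptor gene. Promoter entries were found for 27 of the 42 members, with 30 windows in all. The PU.1 core was in 14 of these 30 windows, against 23.3% of the 32851 windows of the table (7639 windows). The AP-1 site was in 1 window, against 4.46% (1466 windows), and the GC box was in 10 windows, against 32.7% (10756 windows). A match describes the letters only. In the GENCODE M21 annotation of GRCm38, the alpha chains of beta2 all lie on chromosome 7, from the start of Itgal at 127296260 over Itgam and Itgax to the end of Itgad at 128223816.

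The mice were offspring of Collaborative Cross males of 35 strains and MexTAg females, in which the mesothelin promoter drives SV40 large T antigen, so every mouse shared that transgene cross. All were given 2 intraperitoneal doses of 3 mg crocidolite asbestos, and RNA came from whole tumours. The labels set each mouse below or above the median survival, without saying from which mice that median comes. There were 36 mice below, with 52 of the 167 tumour libraries, and 83 above, 13 strains had mice of both classes, and no untreated or tumour-free sample was used here. The tumours of 1 mouse were summed, so the mouse is the replicate. Mice of 1 strain are close relatives, and p-values measure the spread between mice of these strains. Levels are a gene's count scaled to the total of its library (CPM), and levels of different genes are compared only as CPM per kb of exon.

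The 167 libraries held 11138491 to 35399287 counts, with a median of 22539831. In 19 libraries markers of liver, pancreas, intestine, reproductive tract, kidney or skeletal muscle took over 1% of the counts. In 5 libraries of 5 mice the expression profile stood nearer to another strain than to the labelled one. In 8 strains (28 mice) the kidney gene Umod was above 2 CPM in every mouse, and these are called the Umod strains. The 8 mesothelial markers were all detected, in 125 to 167 libraries at 1 CPM or more. Their summed level ran from 22.8 to 3540 CPM below the median survival (median 265) and from 9.34 to 4741 CPM above it (median 351), so tumours with hardly any mesothelial marker RNA were present in both classes. In whole tumours, fewer cells of a type and less RNA per cell cannot be told apart.

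Itgb1, the chain that pairs with most alpha chains, had the highest level per kb of all members, with a median of 260.5 CPM per kb over the 119 mice. It was also among the steadier members, from 273 to 2410 CPM. The next were Itgb5 (58.5 CPM per kb), which pairs with the alphav chain, Itga5 (56.5), the fibronectin receptor alpha chain, Lamc1 (54.4) and Lamb1 (44.6). The highest leukocyte chains were Itgb2 (23.2 CPM per kb) and Itgam (20), close to Itgav (21.2). The lowest were Itgad (0.075), Itgb6 (0.070), the epithelial partner of alphav, and Itgb2l (0.028). The range within a gene was often far wider than the step to the next gene. Lamb3 ran from 0.261 to 503 CPM (median 2.05), Itgb6 from 0.050 to 170.0 CPM (median 0.496) and Itgal from 1.62 to 406 CPM (median 12). Of the 4998 values, 23 were at 0 CPM, all in Itgad, Itgb1bp2 or Itgb2l. Itgb2l is a close relative of Itgb2, and how reads were split between them is uncertain.

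**Figure D1:**
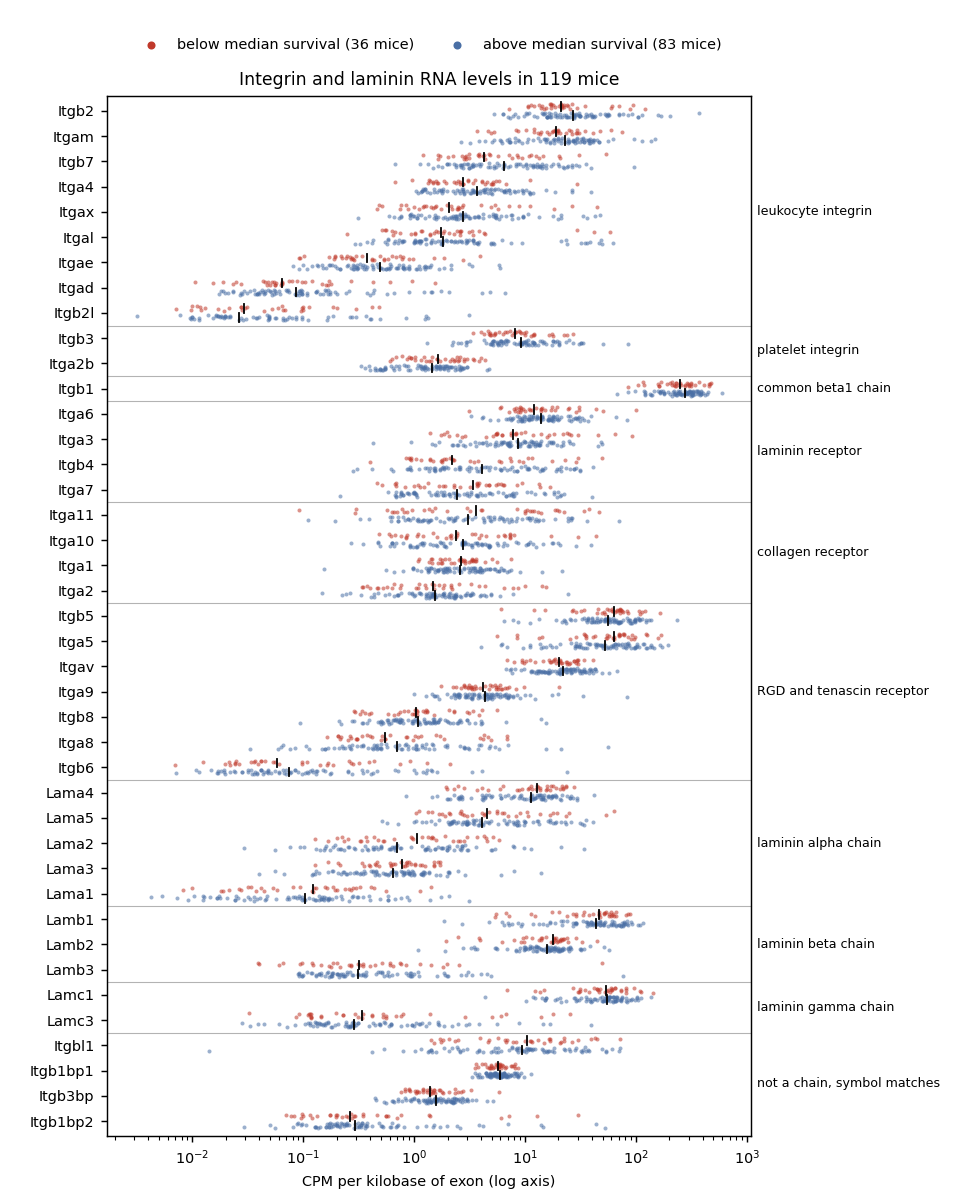
Level of the integrin and laminin genes in each mouse, as CPM per kb of exon on a log axis. In each row mice below the median survival are the upper red points and mice above it the lower blue points, and black ticks are medians. Itgb1 lies highest, at a median of 260.5 CPM per kb over all mice, and the 2 classes overlap in every gene. The 23 values at 0 are not drawn.

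The highest chain of a family was not the same in every tumour. Among laminin alpha chains, Lama4 was the highest per kb in 80 of 119 mice and Lama5, a chain of epithelial and vessel basement membranes, in 34. Lama2, the muscle and nerve chain, led in 3 mice and Lama3 in 2. Lamb1 led the beta chains in nearly all mice, Lamb2 in 10 and Lamb3 in 1. Lamc1 led the gamma chains in 117 mice. The mouse led by Lamb3 was LOX-F4.

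Among receptors, Itgam was the highest of the alpha chains of beta2 in 100 mice, with a median of 81.5% of their sum per kb. Itgal led in 12 mice, 4 each of the strains CC044 and CC053 and 1 or more of LAX, LOX and MEE, and Itgax led in 7. The laminin receptor alpha chains were led by Itga6 in 83 mice, Itga3 in 26 and the muscle chain Itga7 in 10. Collagen receptors were the most divided family. Itga11 led in 49 mice, Itga10 in 34, Itga1 in 29 and Itga2 in 7. Itgb5 led the partners of alphav in 116 mice.

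The 9 leukocyte integrins took 2.75% to 65.5% of the counts of all integrin chains in a mouse. Their share was 13.6 ± 12.8% below the median survival (SD, n = 36) and 16.4 ± 14.3% above it (SD, n = 83). The medians were 9.92% below and 10.8% above, and the ranges overlapped almost wholly. Strains differed more. The share was 38.7 ± 22% in CC044 (SD, n = 7) and 27.7 ± 16.7% in CC053 (SD, n = 6), against 4.64 ± 2.21% in CC058 (SD, n = 3). Of its variance, 39.6% lay between strains.

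Leukocyte and tumour integrins were separated by their correlation with a leukocyte score, the mean over 10 pan-leukocyte genes of centred log2 CPM, none of them an integrin. Over 119 mice, 10 members correlated positively and 18 negatively at an adjusted permutation p under 0.05, adjusted over 210 relations (42 members with 5 marker scores). Only members were correlated with the scores, so how common such relations are among all genes is not known. This holds for the counts in the other settings as well. Itgal followed the score most closely (Pearson r = 0.86, Spearman rho = 0.72, adjusted permutation p = 6.18e-05, from the smallest p that the permutations can give, 1e-05). Itgb2 had r = 0.81, Itga4, a chain of VLA-4, 0.72, Itgae, the chain of lymphocytes within epithelia, 0.67, Itgax 0.65 and Itgad 0.64. Itgb7 (0.42) and Itgam (0.26, adjusted permutation p = 0.0111) were lower. Itgb2l was the leukocyte chain with no positive relation (r = -0.20, adjusted permutation p = 0.0585).

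Positive relations outside the leukocyte chains were few. Itga9, a tenascin receptor chain, had r = 0.34, and Itgb1bp1, an inhibitor of beta1 activation, had r = 0.30. Lamb3 (r = 0.21), Lama1 (0.01) and Itgb1bp2 (0.00) had no relation that passed. The most negative relations were those of laminin chains and matrix receptors. Lamb1 had r = -0.67 (rho = -0.51), Lamc1 -0.63, Itga5 -0.61, Itgb5 -0.55, Itgb1 -0.55, Lamb2 -0.54 and Itga3 -0.50. Among the remaining roles, Itga10 was the lowest collagen receptor (-0.38) and Itga1 the highest (-0.13). Lama4 was the lowest laminin alpha chain (-0.37, rho = -0.10). Itgbl1 had -0.43, Itga2b, the platelet alpha chain, -0.28 and its partner Itgb3 -0.16. Itgb4, the partner of Itga6, had r = -0.18, and Lamc3 had -0.07. For Itgb5 the rank correlation did not pass (rho = -0.21, adjusted permutation p = 0.0520), and for Lama4 it did not either (adjusted permutation p = 0.420).

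Within strains, after subtraction of strain means in the 25 strains with 3 or more mice, 9 positive and 13 negative relations passed. Itgal then had r = 0.84, Itgam 0.37 and Lamb1 -0.59. Without the 2 mice farthest from the median score, 10 positive and 16 negative relations passed. Without libraries over 1% other tissue the counts were 10 and 22, and Lamb1 reached -0.83. In the 28 mice of the Umod strains, 9 positive and 2 negative relations passed, and in the other 91 mice 8 and 19. In the Umod strains, Lamb1 had r = -0.48 and Itga5 -0.53.

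Scores of single cell types divided the members further. With the T cell score, Itgal had r = 0.93 and Itgae 0.79. With the macrophage score Itgam had r = 0.72 (0.75 within strains) and Itgb2 0.46. With the neutrophil score only Itgam (0.25) and Itgb2 (0.24) passed among positive relations. Itgal and Itgam, partners of the same beta chain, thus had their highest correlations with different marker scores. These 3 lists were added after the data had been seen, and their p-values were adjusted over their own 126 relations.

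The fibroblast score went with the abundant matrix chains. Lama4 had r = 0.78, Itgb5 0.75, Lamb1 0.75, Lamc1 0.74, Itga5 0.69 and Itga11, a collagen receptor of fibroblasts, 0.56. The mesothelial score went with other laminins, Lamc3 (0.59) and Lama5 (0.52), and with Itga7 (0.36) and Itgb8 (0.35). The endothelial score was highest for Itga1 (0.51), a collagen receptor of vessels and smooth muscle. Itga2b, which defines platelets, had r = 0.28 with the platelet score, whose markers were low. The score of each list shares its libraries with the members, and their depth and composition are common to both.

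**Figure D2:**
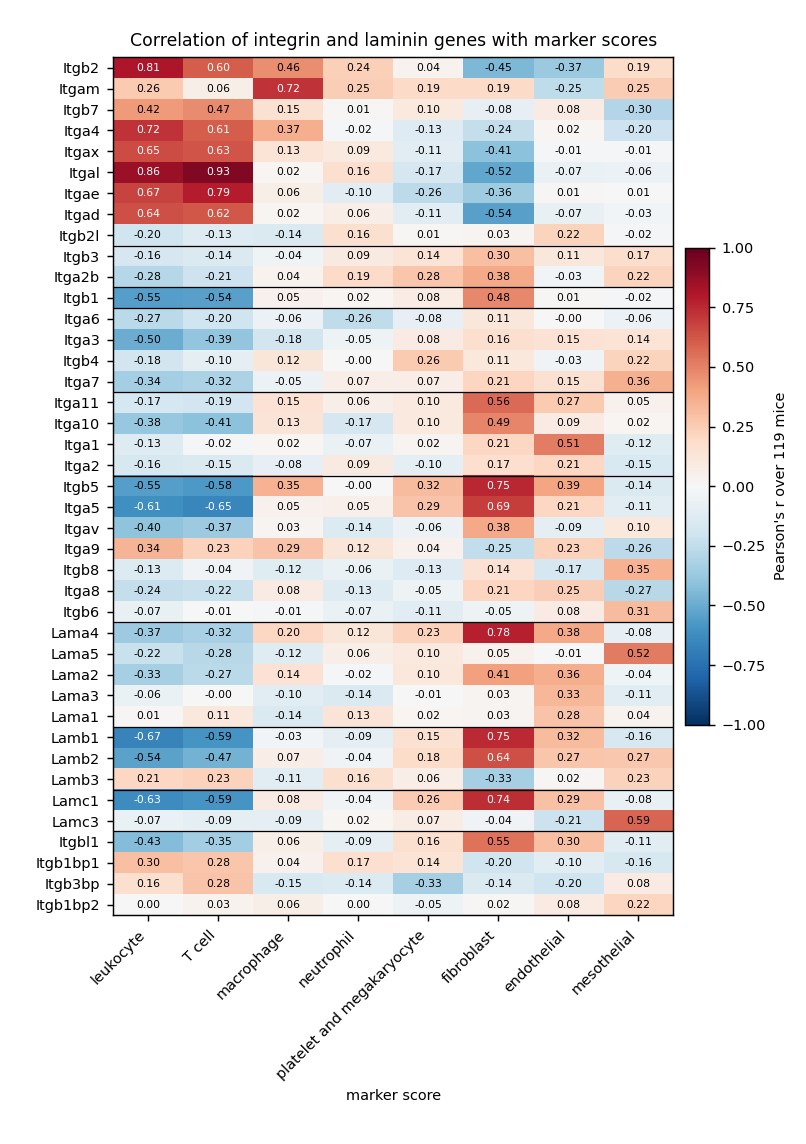
Pearson correlation of each member's log2 CPM with 8 marker scores over 119 mice, as colours, with members sorted by role. The leukocyte integrins other than Itgb2l are positive with leukocyte and T cell scores (Itgal 0.86 and 0.93), while Lamb1, Lamc1, Itga5 and Itgb5 are negative with leukocytes and positive with fibroblasts.

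Partner chains of 1 protein were compared across mice. Of 22 pairs of partner chains, 19 correlated positively at an adjusted permutation p under 0.05 and 1 negatively. The median r was 0.40 over the partner pairs and 0.04 over the 839 other pairs of members. The lowest r that passed, 0.19, was reached by 19 partner pairs and by 235 (28.01%) of the other pairs, so it was common among members that are no partners. The laminin pairs were closest, with Lamb1 and Lamc1 at r = 0.84, Lamb2 and Lamc1 at 0.75 and Lama4 and Lamc1 at 0.74. Itga5 and Itgb1, the fibronectin receptor, had r = 0.61. Itgb2 had r = 0.61 with Itgax, 0.60 with Itgal and 0.53 with Itgam. Itga6 and Itgb4, the hemidesmosome receptor, had r = 0.53. Itgav and Itgb6 had r = 0.03. Itga4 and Itgb1 were the negative pair (r = -0.31, adjusted permutation p = 0.0012). In the 28 mice of the Umod strains 11 pairs passed.

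The beta2 chain had a higher r with the sum of its partners than with Itgax, Itgal or Itgam alone. The values for single partners were of log2 CPM, so the scales differ and this is not a like comparison. On the CPM per kb scale, the sum of Itgal, Itgam, Itgax and Itgad had r = 0.88 with Itgb2 (rho = 0.84), 0.91 within strains and 0.87 without the 2 farthest mice. The sum was 1.11 times Itgb2 in the median mouse, with a range of 0.410 to 2.78. Itgb1 had r = 0.69 with the sum of 12 alpha chains, at a median ratio of 0.552. Lamc1 had r = 0.67 with the sum of Lama1, Lama2, Lama4 and Lama5, and Itgav had r = 0.34 with its 4 beta chains. The sums were chosen after the data had been seen, and each has an adjusted permutation p of 0.00025 or lower over the 4 sums.

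Strain differences were tested in the same 25 strains. By edgeR's quasi-likelihood F test 32 of the 42 members passed an adjusted p of 0.05, against 69% of all genes tested, so the members' share lay near that of all genes. All 9 leukocyte integrins and all 4 laminin receptors passed, with 6 of 7 RGD and tenascin receptors, 3 of 5 laminin alpha chains and 1 of 3 laminin beta chains. Those that did not pass were Itga10, Itga2, Itga2b, Itga5, Itgb1bp1, Lama4, Lama5, Lamb1, Lamb2 and Lamc1. By limma-voom 15 members passed, against 50.4% of all genes. The 12 that passed by both tools were Itga11, Itga4, Itga6, Itgad, Itgae, Itgal, Itgav, Itgb1, Itgb3bp, Itgb5, Itgbl1 and Lama2. The share of a member's log2 variance between strains ran from 15.2% (Itgb1bp2) to 48.5% (Itgav), with a median of 33.9%. These shares are uncorrected as well, so a low one need not be a strain difference.

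Itga6 was the clearest laminin receptor. The 3 CC060 mice had 351, 336 and 293 CPM, against 82.4, 78.8, 66.7, 43.99, 70.2, 72.2 and 87.4 CPM in the 7 CC044 mice. The 2 strains did not overlap, and their mean log2 CPM was 8.35 ± 0.14 in CC060 (SD, n = 3) and 6.14 ± 0.33 in CC044 (SD, n = 7). They were picked from these values as the strains of highest and lowest mean, so a lack of overlap is no separate support. The same holds for the strain pairs of the members below. Lama4, which did not pass by edgeR (adjusted p = 0.218), had no overlap either, between Piping (187 to 333 CPM) and CC053 (23.9 to 128 CPM). Itga6 passed by edgeR (adjusted p = 3.85e-05 over strains) and by limma-voom (adjusted p = 0.00087).

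CC044 was the strain of highest mean for 4 of the 9 leukocyte chains, Itgal, Itgae, Itgad and Itgb2. Itgal had 22.2, 4.18, 320, 140, 228, 274 and 385 CPM in CC044 mice, against 2.14, 4.43 and 3.55 CPM in CC021 mice. One CC044 mouse lay within the CC021 range and the other 6 far above it. Itgae had 1.96, 0.996, 4.73, 9.78, 14.2, 17.9 and 12.7 CPM in CC044 and 0.740, 0.877 and 0.550 CPM in CC021, with no overlap. Itgad ran from 0.249 to 7.02 CPM in CC044 (median 2.98), against 0.048 to 0.293 CPM in LAT (median 0.193), and the lowest CC044 mouse lay inside the LAT range. By edgeR the adjusted p over strains was 1.29e-08 for Itgal, 1.85e-04 for Itgae and 5.11e-07 for Itgad, and by limma-voom 0.0148, 0.00742 and 0.0109.

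Markers moved with these chains. The summed leukocyte list ran from 664 to 7908 CPM in CC044 (median 6453), against 587 to 1220 CPM in CC021 (median 669). The T cell list ran from 18.9 to 1176 CPM in CC044 (median 441) and from 11.6 to 13.3 CPM in CC021. The B cell list had a median of 1649 CPM in CC044 and ran from 5.59 to 12.4 CPM in CC021. All 10 leukocyte genes, all 10 T cell genes and all 8 B cell genes passed between strains by edgeR, beside 69% of all genes. None of these genes was at 0 in every mouse. Some lists of other cells also passed in full, such as smooth muscle, skeletal muscle and hepatocyte markers (8 of 8 each). Of the macrophage markers 6 of 10 passed. The part of these cells in the strain differences of the integrins was not tested.

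**Figure D3:**
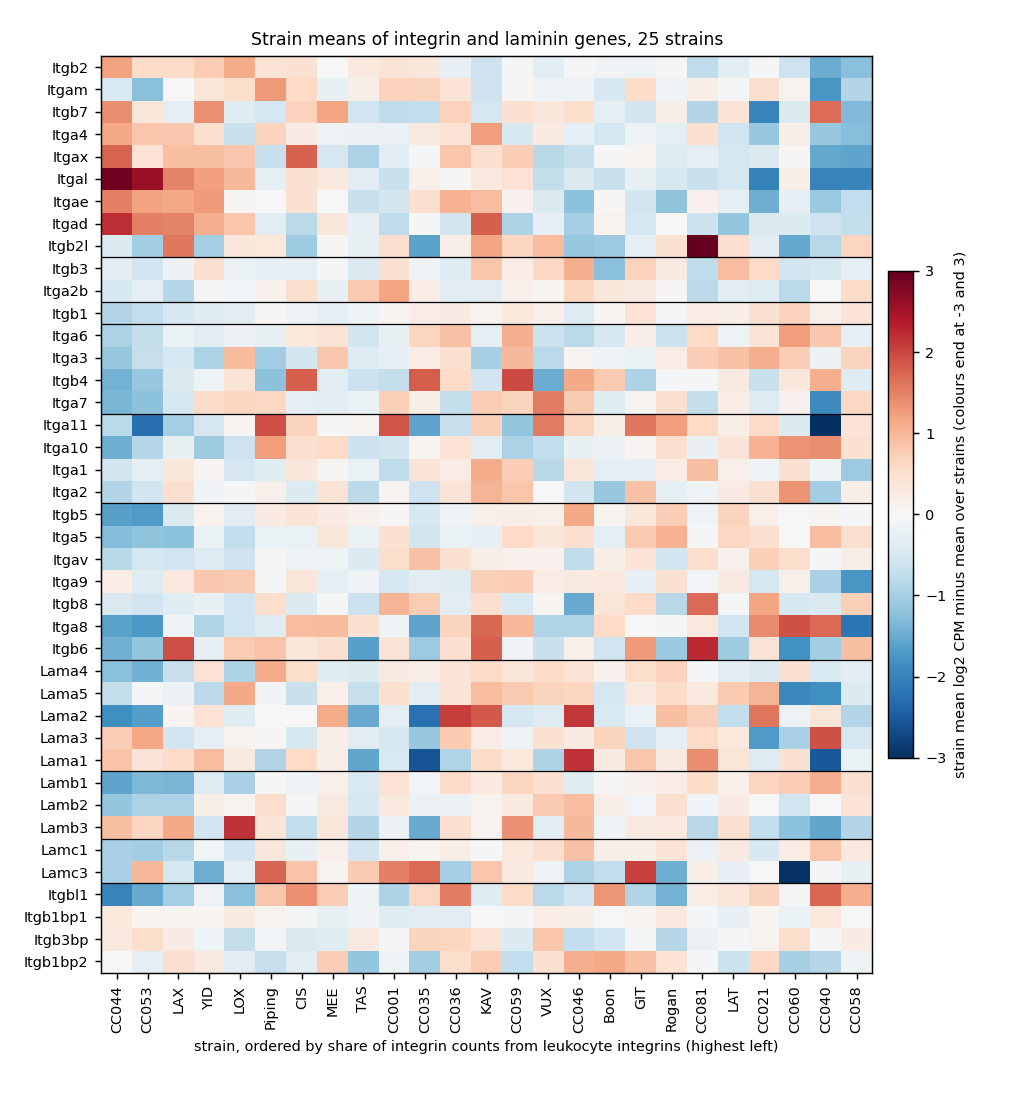
Mean log2 CPM of each member in 25 strains, centred on the gene's mean over strains, with strains ordered by the leukocyte share of integrin counts. Colours end at -3 and 3. CC044 (38.7% leukocyte share) and CC053 (27.7%) are high for Itgal and low for Itgb1 and Itgb5, at the other end from CC058 (4.64%).

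Other members had other orders of strains, and apart from Itga9 those of the next sentences were chosen after their values were seen, from the members that passed by both tools. Itga9 had 76.2, 39.5, 85.7 and 41.7 CPM in YID, against 7.71, 11.7 and 9.88 CPM in CC058, with no overlap (edgeR adjusted p over strains = 1.45e-04, limma-voom adjusted p = 0.142). Itgav was highest in CC035 (mean log2 CPM 8.81 ± 0.60, SD, n = 3) and lowest in CC044 (7.10 ± 0.82, SD, n = 7). Itgb1 was highest in CC060 (10.72 ± 0.47, SD, n = 3) and lowest in CC044 (9.15 ± 0.48, SD, n = 7), without overlap. Itgb5, at 8.75 ± 0.87 in CC046 (SD, n = 3) and 5.93 ± 0.94 in CC053 (SD, n = 6), did not overlap either. Itga11 had 6.12 ± 0.44 in Piping (SD, n = 3) and 0.24 ± 1.54 in CC040 (SD, n = 4), and Lama2 had 6.19 ± 0.90 in CC046 (SD, n = 3) and 1.83 ± 1.02 in CC035 (SD, n = 3), both without overlap.

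In several of the highest strains 1 mouse stood far above the others. Lamb3 in LOX had 6.33, 19.3, 3.41, 30.04, 1.496, 1.499 and 503 CPM, the last in LOX-F4, against 0.639, 1.81, 0.926 and 0.261 CPM in CC040. The only other mouse near LOX-F4 was CC059-E2, with 328 CPM. The LOX median was 6.33 CPM, against 1.93 CPM in the mice of the other strains. Itgb6 had 0.339, 0.866 and 170.0 CPM in CC081, the last in CC081-C5, against 0.121, 0.259 and 0.172 CPM in CC060. Itga8, a receptor of smooth muscle and kidney, had 408, 3.21 and 8.62 CPM in CC060, the first in CC060-B1, against 1.15, 0.619 and 2.80 CPM in CC058.

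A muscle gene had the same pattern. Itgb1bp2, a protein of striated muscle also called melusin, had 0.190, 0.362, 94.2 and 0.653 CPM in Boon, the 94.2 in BOON-I2, against 0 to 0.840 CPM in TAS. All 4 of these members passed by edgeR, and none of Lamb3, Itgb6, Itga8 and Itgb1bp2 passed by limma-voom (adjusted p = 0.195, 0.0715, 0.0937 and 0.942). LOX-F4, CC081-C5, CC060-B1 and BOON-I2 were left out in a further test, chosen after the values were seen. CC081 and CC060 then had fewer than 3 mice and left the test as well. Over the remaining 95 mice of 23 strains, 31 of 42 members passed by edgeR, beside 14179 of 20549 genes.

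Markers of other tissue were high in some of these mice. CC081-C5 had the highest kidney sum (4110 CPM, against 288 CPM in the next mouse) together with the highest Itgb6. BOON-I2 had a skeletal muscle sum of 14478 CPM with the highest Itgb1bp2. The highest skeletal muscle sum was in another mouse, TOFU-K2 (53476 CPM), and the next was 44793 CPM. KAV-G2 had the highest smooth muscle sum (10271 CPM, against 6051 CPM in the next mouse) and the highest Itga1 (401 CPM), Itgb3 (497 CPM) and Lama2 (551 CPM). LOX-F4 had the highest Itga2 (173 CPM) and Itga9 (640 CPM) besides Lamb3, with a mesothelial sum of 1601 CPM. VIT-A2, with the highest macrophage sum (7626 CPM), had the highest Itgam (747 CPM), Itgb2 (1123 CPM) and Itga4 (555 CPM). LOX-E4, with the highest leukocyte sum (9355 CPM), had the highest Itgal (406 CPM) and Itgad (29.99 CPM). The part of these tissues in the strain differences was not tested.

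**Figure D4:**
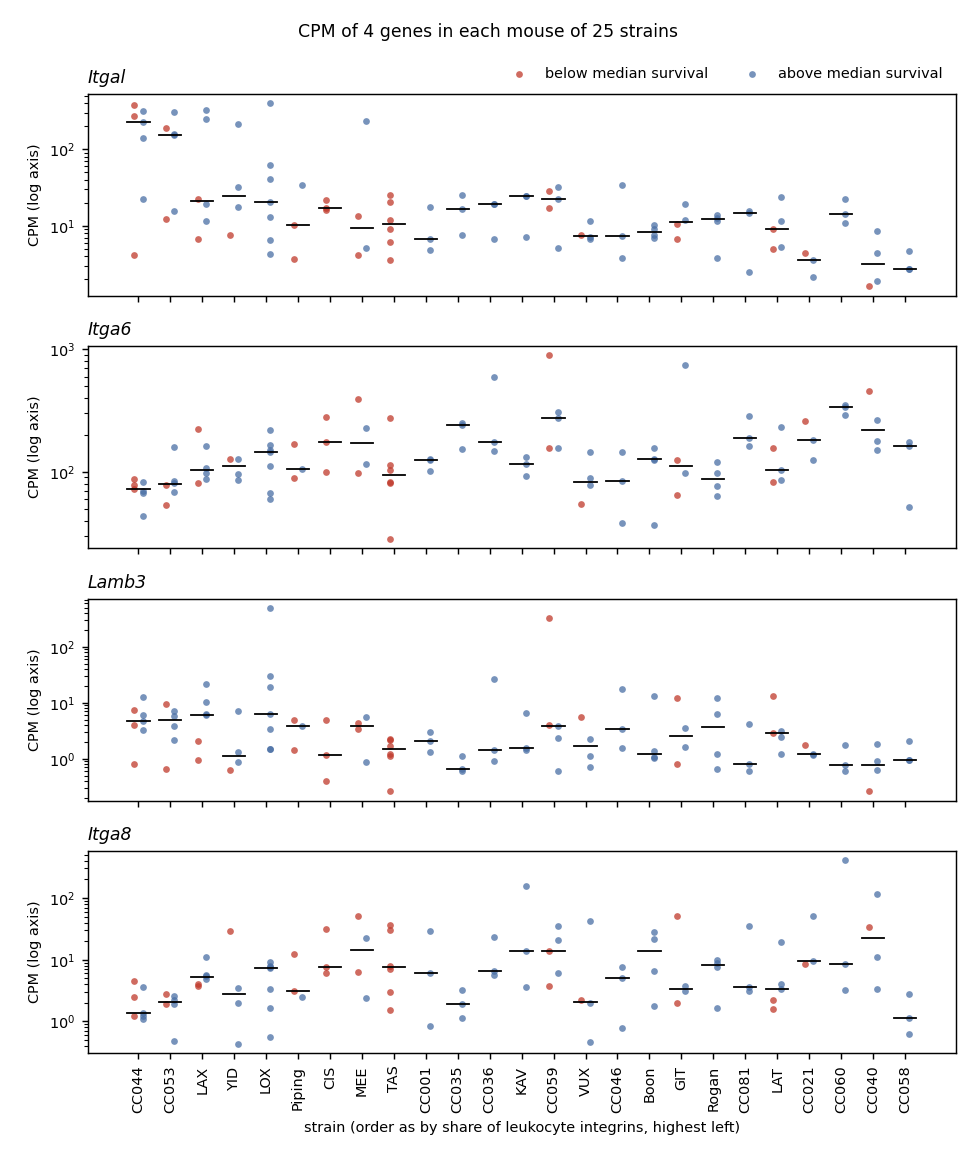
CPM on a log axis of Itgal, Itga6, Lamb3 and Itga8 in each mouse of 25 strains, 1 point per mouse, red below and blue above the median survival, with black lines at strain medians. In Itgal 6 of 7 CC044 mice lie far above CC021, all CC060 mice lie above all CC044 mice for Itga6, and 1 mouse in LOX for Lamb3 (503 CPM) and 1 in CC060 for Itga8 (408 CPM) stand far above the other mice of their strain.

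Several tumours had been sequenced from 35 mice. The SD of log2 CPM between tumours of 1 mouse was below the SD between mice of 1 strain for 41 of the 42 members, with a median ratio of 0.694. The ratio was highest for Itgb1 (1.00). As 84 of the 119 mice gave 1 tumour, the SD between mice contains the spread between tumours too. A ratio under 1 is therefore likely for any gene, and it was computed for the members only. Without libraries nearer to another strain it was below 1 for all 42 members in 31 mice, with a median of 0.637. Large gaps within a mouse still occurred. Itga3 had 245 and 3.83 CPM in the 2 tumours of CC053-A1, and Lamc3 had 80.01 and 1.45 CPM in those of CIS-G3. Lamb3 had 61.6 and 0.698 CPM in LOX-D1, where the second library stood nearer to another strain. Itgb1bp2 had 0.333 and 54 CPM in GIT-K1, where the second library was over the limit for other tissue.

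Between survival classes no member passed. The comparison of 36 mice below with 83 above the median, with edgeR's quasi-likelihood test, called 0 of the 41 members tested, against 1.56% of all genes (267 of 17091). Strain was not a term in this comparison. As 6 strains had mice below only and 16 had mice above only, its estimates mix strain with survival class. Itgb2l was too low to be tested. By edgeR 4 members had an unadjusted p under 0.05, beside 1544 of all 17091 genes. DESeq2 called 0 members and 285 of all 17091 genes, and limma-voom called 0 members and 0 of all genes (487 at an unadjusted p under 0.05). The median log2 fold change, below minus above, was -0.15 over the members, with 15 positive, and -0.02 over all genes tested. All 8 tested leukocyte integrins had negative estimates (median -0.40).

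The members of lowest p overlapped widely between the classes. Itgad had a lowest, median and highest level of 0.0480, 0.291 and 7.02 CPM below the median and 0, 0.387 and 29.99 CPM above it. Its log2 fold change was -1.25 ± 0.46 (SE, edgeR adjusted p = 0.220). Itgb6 had 0.0498, 0.415 and 15.1 CPM below and 0.0502, 0.525 and 170.0 CPM above, and a log2 fold change of -1.30 ± 0.53 (SE, edgeR adjusted p = 0.339). The highest value of Itgb6, in CC081-C5, was in the class above. Itga2b had 3.31, 9.01 and 23.8 CPM below and 1.81, 7.90 and 25.97 CPM above, with 0.39 ± 0.17 (SE, edgeR adjusted p = 0.389) on the log2 scale.

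The 2 leukocyte chains of lowest p after Itgad lay close to each other. Itga4 had 9.33, 38.6 and 412 CPM below and 14.5, 51.6 and 555 CPM above, a log2 fold change of -0.50 ± 0.24 (SE, edgeR adjusted p = 0.514). Itgb2 had 21.6, 64.3 and 371 CPM below and 15.9, 81.9 and 1123 CPM above, a log2 fold change of -0.49 ± 0.25 (SE, edgeR adjusted p = 0.553). In the same contrast the 10 leukocyte markers had a median of -0.31 and the 10 T cell markers -0.71, with 0 passed in each. The part of these cells in the estimates of the integrins was not tested.

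Within strains, 22 mice below and 35 above the median of the 13 strains that had both classes were compared with strain as a term. By edgeR 0 of 41 members passed, against 0.0% of all genes (0 of 16481, with 1882 at an unadjusted p under 0.05). There were 12 members with an unadjusted p under 0.05. DESeq2 called 1 member, Lama2, against 0.394% of all genes (65 of 16481), and limma-voom called 0 members and 0 of all genes (1400 at an unadjusted p under 0.05). The median log2 fold change, below minus above, was 0.24 over the members, with 27 positive and 14 negative, and -0.01 over all genes tested.

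Lama2 had the lowest p. Its lowest, median and highest levels were 2.74, 24.8 and 84.6 CPM below the median and 0.912, 9.80 and 344 CPM above it. The ranges overlapped, and the strain mean was higher below in 11 of 13 strains. Its log2 fold change was 1.42 ± 0.44 (SE, edgeR adjusted p = 0.402, DESeq2 adjusted p = 0.0439). Lama5 had 16.5, 60.01 and 716 CPM below and 8.21, 39.8 and 355 CPM above, with 1.10 ± 0.39 (SE, edgeR adjusted p = 0.402) on the log2 scale. Lamb2 had 11.8, 112.3 and 271 CPM below and 11.6, 76.8 and 316 CPM above, with 0.69 ± 0.26 (SE, edgeR adjusted p = 0.403).

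The leukocyte chains had estimates of the other sign. Itgb7, the beta chain of gut-homing lymphocytes, had 4.55, 11.3 and 147.99 CPM below and 1.85, 35.4 and 267 CPM above, with -0.98 ± 0.33 (SE, edgeR adjusted p = 0.402) on the log2 scale. Itgb2 had 21.6, 58.01 and 371 CPM below and 15.9, 106.8 and 1123 CPM above, with -0.84 ± 0.32 (SE, edgeR adjusted p = 0.403). Each of these chains was lower below the median in 10 of 13 strains. All 8 tested leukocyte integrins had negative estimates (median -0.75). All 5 laminin alpha chains (median 0.92), all 3 beta chains (median 0.62), all 4 collagen receptors (median 0.73) and all 7 RGD and tenascin receptors (median 0.20) had positive ones. Other roles were mixed. Of the laminin gamma chains 2 were positive and 1 negative, Lamc3, which had the most negative estimate of all members. Laminin receptors had 3 positive and 1 negative (Itgb4), platelet integrins 1 of each sign, and the genes that are not chains 1 positive and 3 negative. Over all mice the laminin alpha chains had 2 positive and 3 negative estimates (median -0.29), and the beta chains 2 and 1 (median 0.02). Collagen receptors there had 3 and 1 (median 0.25), and RGD and tenascin receptors 2 and 5 (median -0.22).

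Some marker lists had like values in that contrast. The median log2 fold change, below minus above, was -0.67 for leukocyte, -1.07 for T cell and -1.41 for B cell markers. It was 0.56 for fibroblast (range -0.49 to 0.82), 0.67 for endothelial and 0.60 for basement membrane genes. Other lists had -0.17 (macrophage), 0.14 (neutrophil), -0.27 (mesothelial) and 0.61 (skeletal muscle). By edgeR 0 genes passed in each list, as among all 16481 genes tested. The part of these lists in the estimates of the members was not tested. Without strain VIT, which had the greatest difference for most of the 12 members above and was left out after the values were seen, 27 estimates were positive and 14 negative. Then 9 members had an unadjusted p under 0.05 by edgeR, beside 1453 of all 16562 genes. Lama2 had 1.31, and the leukocyte integrins a median of -0.72.

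**Figure D5:**
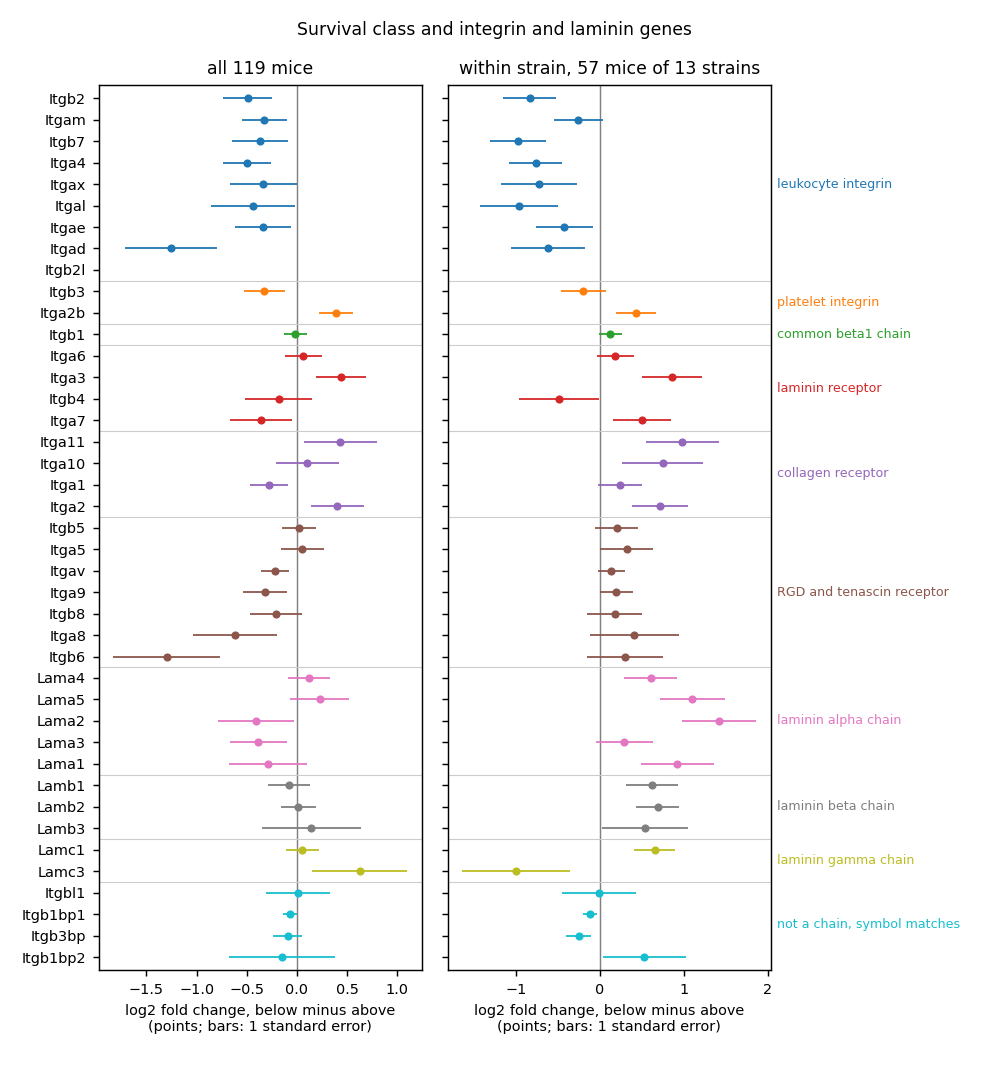
Log2 fold change, below minus above the median survival, of members tested, with bars of 1 SE, over all mice (36 against 83) and within 13 strains (22 against 35). The leukocyte integrins lie left of 0 in both, the laminin alpha and beta chains right of 0 within strains, and no member passes by edgeR.

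Genes that work with the members were taken from 3 lists. Between survival classes, 1 of 34 genes of the adhesion complex passed by edgeR, beside 1.56% of all genes. It was Tns4, a focal adhesion protein, with a log2 fold change of 1.18 ± 0.30 (SE, edgeR adjusted p = 0.0148). Its lowest, median and highest levels were 0.288, 1.79 and 119 CPM below the median and 0.411, 1.76 and 20.1 CPM above it, so the medians were nearly equal and CC059-E2 held the highest value. By limma-voom 0 of all genes passed in this contrast. Within strains 0 of the 34 adhesion genes passed by edgeR, and the highest estimate among them was 0.47. Between the classes over all mice, none of 25 integrin ligands and none of 23 basement membrane genes passed by edgeR. In the same contrast 4 kidney, 3 reproductive tract, 2 intestine, 1 hepatocyte and 1 adipocyte marker passed, and none of the members did.

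Between strains, 25 of 34 adhesion genes, 17 of 26 integrin ligands and 14 of 23 basement membrane genes passed by edgeR, beside 69% of all genes. The adhesion genes of lowest p were Parvg, a parvin of blood cells, with a median of 85.9 CPM in CC044 and 2.56 CPM in CC040, Tns4 and Fermt1, the kindlin of epithelia. Among ligands they were the fibrinogen chains Fgb, Fgg and Fga, made by hepatocytes, which were highest in TAS-I1. The type IV collagen chains Col4a3 and Col4a4 of the kidney filter were both highest in CC081-C5, the mouse of the highest kidney sum, and Frem2 was highest in KAV-G2.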

How the data were processed

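RNA-seq of whole tumours was analysed in 167 libraries of 119 mice. The authors deposited estimated counts per gene, made with kallisto 0.46.1 on GRCm38, per the submitters' processing notes, which also name DESeq2 and DESeq. A second deposited table of 22049 genes equalled the first in every one of 3682183 cells. Table columns were joined to samples by title, 165 to 1 sample each and 2 to the mouse GIT-K1 only. Estimated counts, deposited as whole numbers, were summed per mouse. A kallisto count spreads reads shared by like transcripts by likelihood, so close relatives are less certain.

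Differences were tested with edgeR 4.0.16 (quasi-likelihood, TMM, filterByExpr) over all genes that passed the filter on low counts, with Benjamini-Hochberg adjustment at 0.05. Limma-voom (limma 3.58.1) and DESeq2 1.42.0 were alternatives, with no filter, other scaling, leaving out mice, and leaving out libraries that stand apart. Levels on the log2 scale are log2 CPM with a prior count of 2, and CPM without log have none. Correlations used 100000 permutations of the mice, two-sided, with a prior count of 0.5 as an alternative. The code was tested on simulated data. Values were given for every member past a survival contrast or else the 5 of lowest p, for the 10 members of lowest p between strains with a mean of at least 1 CPM, for the highest member of each role, and for those most and least correlated with the leukocyte score. 1 member counted among the 42 is not reported here by name or drawn. The members and gene lists were chosen with earlier results of these data known. The depth of 11138491 to 35399287 counts limits members near 0, such as Itgad, Itgb6 and Itgb2l. Samples of 1 number in different groups share no animal.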

Additional observations from a re-analysis of the deposited data

Results flagged for a closer look

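The members named between strains were examined in the strain in which they were highest or lowest, where it had 4 to 10 mice, and the leukocyte share in CC044 and CC053, which made 20 groups of mice. Of these 1 group held a mouse that lay far from the others. The CC044 mouse H2 had 43.99 CPM of Itga6, a log2 CPM of 5.46, against 66.7 CPM (log2 6.06) in the nearest of the other 6 mice. Its gap took 0.606 of the range of the group. Chance alone gives such a mouse in about 1 of 20 groups, as many as were seen. Itga6 was lower in all 7 CC044 mice than in the 3 CC060 mice, with this mouse included.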

How the results depend on the processing

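No member passed between survival classes under any of the alternatives run. Within strain, DESeq2 called 1 member, Lama2, against 0 by edgeR. Between strains 32 members passed by edgeR and 15 by limma-voom, and 23 to 32 when each numbered mouse of the strains was left out in turn. Leaving out a number took 1 mouse from every strain that had it. Among all genes the number called fell as well, to as few as 10817 of 20959, from 14283 of 20687 with every mouse kept. The lower counts of members are therefore not particular to them. Of 22 partner pairs, 19 passed over all mice and 11 in the Umod strains. In those strains the correlation with the leukocyte score turned positive for Itga1 (0.23), Itgb3 (0.23), Itgb4 (0.070) and Lamc3 (0.094), and Lama3 with Lamb3 turned to -0.064. Lama1 had -0.25 within strains and -0.0053 without libraries over 1% other tissue, and Itgav with Itgb6 had -0.021 within strains and -0.083 in the other strains. The cause was not tested. Of 163 log2 fold changes under alternatives 162 kept their direction and side of the threshold, of 150 adjusted p-values between strains 144 and of 132 partner correlations 118. Of the leukocyte correlations 90 did so, 13 no longer passed, 5 newly passed and 6 changed sign. The 163 log2 fold changes did not take in every member. Itgbl1, which lay outside them, had -0.01 by edgeR and 0.21 by limma-voom within strains. No paired analysis was possible because replicate numbers only name the mice of a group. Depth limits Itgb2l, Itgad and Itgb6, whose values rest on few counts.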
